A study of Rattus norvegicus with 10 samples.

Results

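The 8 genes described here belong to the cellular response to low oxygen and to the glycolytic use of glucose: *Hif1a*, *Vegfa*, *Adm*, *Slc2a1*, *Hk2*, *Ldha*, *Pdk1* and *Bnip3*. They were picked by Ensembl identifier and chromosome, and all 8 were found among the 26404 features listed for each library. The libraries are from fetal rats of the Sprague Dawley strain, taken at embryonic day 21, 10 in number, and the tissue was right cerebral cortex. In the oxytocin group (n = 5) the dams had received oxytocin intravenously at 100 mcg per kg, 24 h before the tissue was taken, and in the saline group (n = 5) the dams had received the same volume of saline. According to the design text every fetus came from a different dam, so n counts litters as well as fetuses. The comparison asks how the cortical transcriptome of the fetus differs a day after oxytocin has driven abnormal contraction of the uterus, which can lower the oxygen that reaches the fetus. All samples had an RNA integrity number above 9.5 and were selected with oligo-dT, and no fetal sex or litter size is given in the labels.

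Cells sense oxygen through the HIF pathway. The HIF-1 alpha subunit, encoded by *Hif1a*, is hydroxylated and degraded while oxygen is plentiful. When oxygen falls it is stabilised, pairs with its beta subunit and binds short DNA elements with the core ACGTG or GCGTG, which raises transcription of genes for angiogenesis, glucose uptake, glycolysis and mitochondrial turnover. Control of *Hif1a* is mainly at the protein level, so its mRNA is not a readout of pathway activity, whereas the other 7 genes are classical transcriptional targets. The fetal brain depends on glucose delivered across the blood-brain barrier by the transporter that *Slc2a1* encodes.

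The promoters of 4 of the genes are shown here. *Vegfa*, *Slc2a1* and *Ldha* carry the pattern described further on, with their highest levels in the same pair of libraries, saline replicates 2 and 5. *Bnip3* does not share it: it was lowest in saline replicate 5 but above its mean over the 10 libraries in saline replicate 2. Each line is the 250 bases before the annotated transcription start, 5′ to 3′ on the strand of the gene, from RefSeq on build GRCr8. Capitals mark every match to ACGTG or GCGTG on either strand.
Vegfa: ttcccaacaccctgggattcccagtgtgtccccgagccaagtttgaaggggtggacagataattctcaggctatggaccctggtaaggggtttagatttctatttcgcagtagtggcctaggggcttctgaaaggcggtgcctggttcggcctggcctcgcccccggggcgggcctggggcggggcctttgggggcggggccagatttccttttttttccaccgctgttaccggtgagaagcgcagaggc
Slc2a1: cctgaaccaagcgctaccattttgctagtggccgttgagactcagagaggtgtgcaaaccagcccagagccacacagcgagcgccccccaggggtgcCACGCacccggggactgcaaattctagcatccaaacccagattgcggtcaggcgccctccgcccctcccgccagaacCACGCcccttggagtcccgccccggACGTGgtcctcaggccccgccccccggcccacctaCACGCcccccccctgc
Ldha: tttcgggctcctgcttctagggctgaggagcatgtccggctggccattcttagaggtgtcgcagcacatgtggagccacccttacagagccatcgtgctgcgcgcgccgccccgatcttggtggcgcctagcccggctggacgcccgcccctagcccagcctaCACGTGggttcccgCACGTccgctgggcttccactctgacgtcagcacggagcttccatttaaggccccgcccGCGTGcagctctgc
Bnip3: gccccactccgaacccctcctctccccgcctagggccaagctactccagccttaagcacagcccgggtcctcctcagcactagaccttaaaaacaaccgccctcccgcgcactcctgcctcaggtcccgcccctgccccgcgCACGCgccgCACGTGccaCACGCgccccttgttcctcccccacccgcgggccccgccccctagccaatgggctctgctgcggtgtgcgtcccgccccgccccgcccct
The windows lie at chr9:22452604-22452853 (plus strand) for *Vegfa*, chr5:138002272-138002521 (plus) for *Slc2a1*, chr1:106507842-106508091 (plus) for *Ldha* and chr1:203154963-203155212 (minus) for *Bnip3*.

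*Slc2a1*, *Ldha* and *Bnip3* each held 4 matches, and 2.44% of all 33469 windows of this length held at least as many. Their windows were 68.4%, 66.4% and 72.4% G or C, where the median of all windows was 51.2%. The share with as many matches among windows rich in G or C was not computed, so 2.44% is not a like background. A CACGTG stretch reads as ACGTG on both strands and so counts as 2 overlapping matches, as in *Ldha*, *Bnip3* and *Hif1a*. *Hif1a* held 3 matches and *Pdk1* held 2, while *Adm*, *Hk2* and *Vegfa* held 0 in their windows, including a second annotated start of *Vegfa*. At least 1 match was present in 5 of the 9 windows of these genes and in 36.7% of all windows. The share was 63.1% of the 8454 windows with at least 60% G or C, the range in which 6 of the 9 lie. The absence of these letters from a window says nothing about elements farther away, and no binding was measured.

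In the files' coordinates, for which the submitters' processing notes name build Rnor_5.0, each gene had its exons free of other listed features. *Hif1a* (ENSRNOG00000008292) lies on chromosome 6 from 106242730 to 106287704, plus strand, with 16 exon blocks. *Vegfa* (ENSRNOG00000019598), for the growth factor that drives vessel sprouting, lies on chromosome 9 from 16232415 to 16247655, plus strand, with 8 exon blocks. *Adm* (ENSRNOG00000027030), for the vasodilator peptide adrenomedullin, lies on chromosome 1 from 182433109 to 182435280, plus strand, with 4 exon blocks. *Slc2a1* (ENSRNOG00000007284) lies on chromosome 5 from 141964114 to 141992634, plus strand, with 10 exon blocks. *Hk2* (ENSRNOG00000006116), for a hexokinase that makes the first commitment of glucose, lies on chromosome 4 from 178239350 to 178288251, minus strand, with 18 exon blocks. *Ldha* (ENSRNOG00000013009), for the lactate dehydrogenase subunit that favours lactate production, lies on chromosome 1 from 103975207 to 103984632, plus strand, with 8 exon blocks. *Pdk1* (ENSRNOG00000001517), for a kinase that inhibits entry of pyruvate into the citric acid cycle, lies on chromosome 3 from 65019116 to 65046273, plus strand, with 11 exon blocks. *Bnip3* (ENSRNOG00000017243), for a receptor in mitophagy, lies on chromosome 1 from 218174697 to 218191883, minus strand, with 6 exon blocks. No listed feature on either strand overlapped any of the 8 spans, so shared reads with an antisense gene in this annotation do not arise.

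Depth ran from 18555172 to 30404127 assigned counts, and the deepest library was oxytocin replicate 1. Saline replicates 2 and 5, which matter below, had 20776414 and 18555172 counts. They also had the highest TMM scaling factors, 1.024 and 1.013. The factors did not overlap between the groups, with 1.001 to 1.024 in the saline libraries and 0.983 to 0.996 in the oxytocin libraries. Their scores on the first principal component of all 14400 tested features were in the middle of the 10 libraries, while on the second component, with 14.5% of the variance, saline replicate 2 was lowest and saline replicate 5 highest. The files do not pair identifiers with names, so marker genes of vessels, blood, neurons or glia, which would test the tissue label, are not analysed here.

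**Figure D1:**
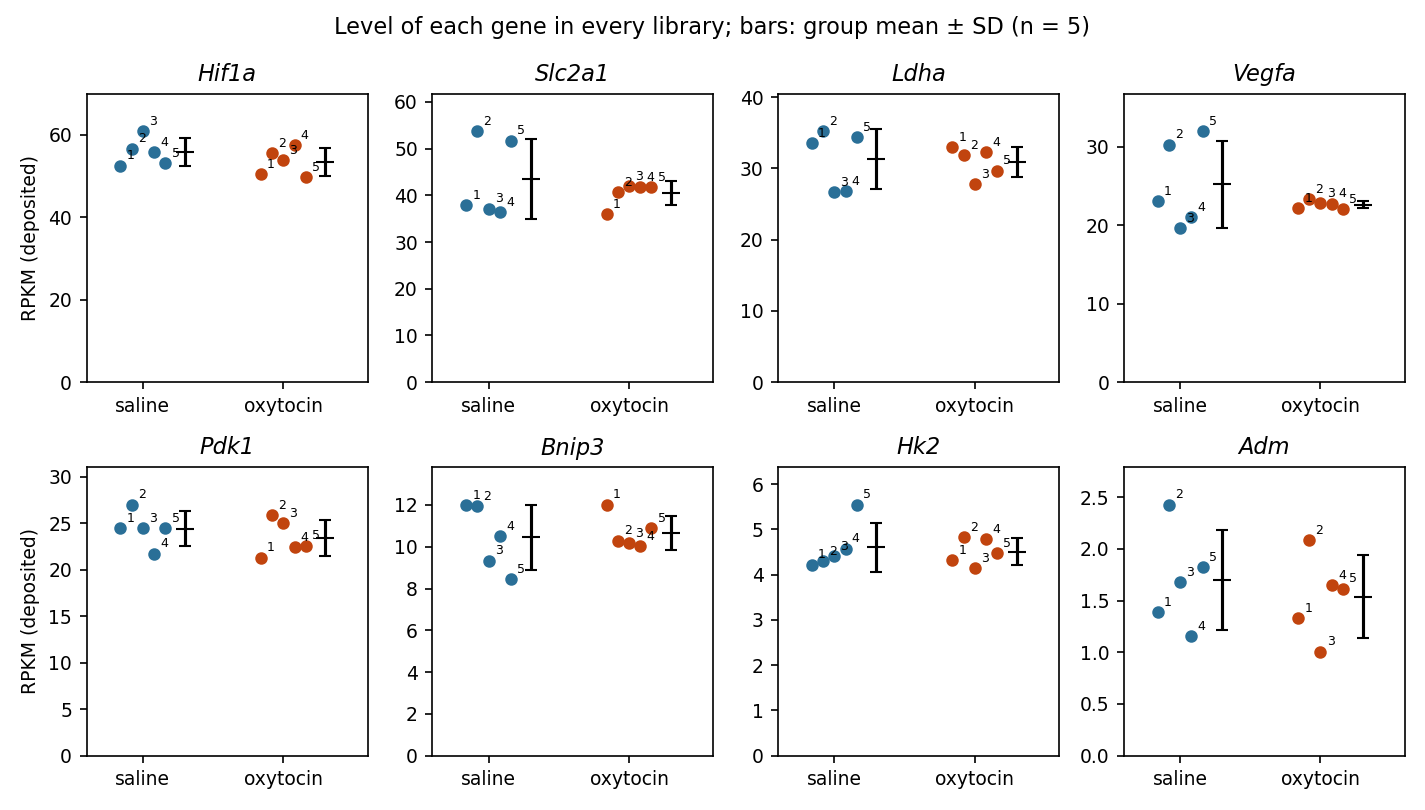
Deposited RPKM (y axes, from 0) of the 8 genes in each library, saline in blue and oxytocin in orange, with the replicate number beside each point and black bars for the group mean ± SD (n = 5). The groups overlap in every panel, and saline replicates 2 and 5 stand above the other libraries for Slc2a1 and Vegfa.

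Levels between genes are compared as RPKM, which is per length. *Hif1a* was the most abundant of the 8, at a mean of 54.6 RPKM over the 10 libraries, above 88.0% of the tested features. *Slc2a1* followed at 41.9 RPKM and *Ldha* at 31.1 RPKM. *Vegfa* and *Pdk1* did not differ in level beyond their spread (23.9 RPKM each, *Vegfa* the higher in 4 of 10 libraries). *Bnip3* stood at 10.6 RPKM, *Hk2* at 4.56 RPKM and *Adm* at 1.62 RPKM, the last above 15.0% of the tested features. Every other neighbouring pair kept its order in 10 of 10 libraries, although the ranges of *Hif1a* and *Slc2a1*, and of *Ldha* and *Vegfa*, overlapped between libraries. In whole tissue, fewer cells of a type and less RNA per cell cannot be told apart.

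None of the 8 genes passed the test between oxytocin and saline. With edgeR's quasi-likelihood test and Benjamini-Hochberg adjustment over 14400 features, 0 of 8 reached an adjusted p of 0.05, as did 0% of all features, and the adjusted p was 0.9997 for each of the 8. At an unadjusted p under 0.05 the count was also 0 of 8, beside 3.57% of all features, and the smallest unadjusted p was 0.276 (*Vegfa*). limma and DESeq2 also put 0 of 8 past the threshold, but DESeq2 gave an adjusted p to 3 of them and none to the other 5. The fitted log2 fold change lay below 0 for 6 genes and above 0 for 2, where 51.8% of all features lay below 0. The median log2 fold change was -0.035 for the 8 and -0.003 for all tested features, and the median size was 0.047 against 0.054. With library size alone in place of the TMM factors, the median was -0.061 for the 8 and -0.0295 for all features. The groups overlapped for all 8, while 0.701% of all features had groups without overlap.

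**Figure D2:**
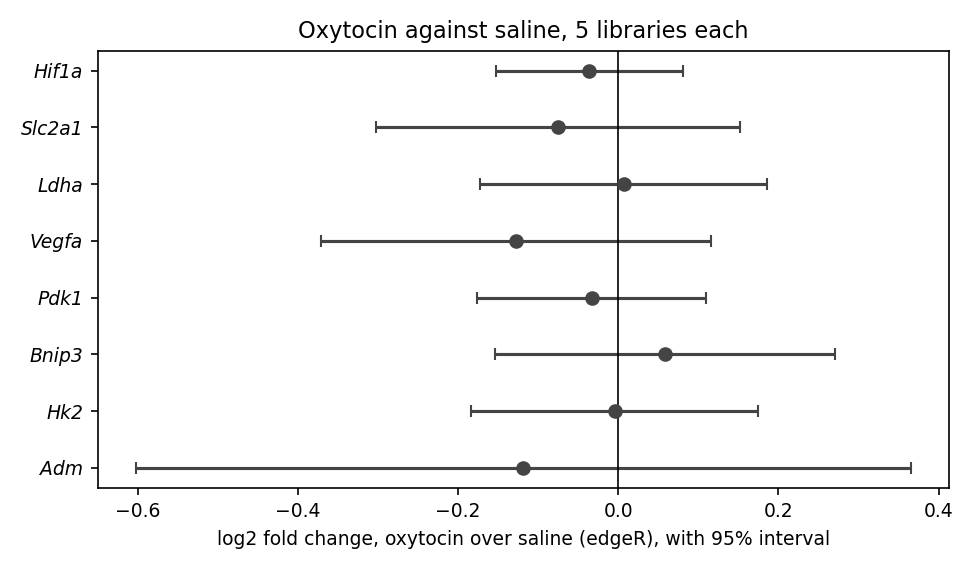
Log2 fold change of oxytocin over saline (x axis) for each gene, from edgeR's quasi-likelihood fit on 5 libraries per group, with 95% intervals as bars. All 8 intervals include 0, and the widest is that of Adm, from -0.60 to 0.37.

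The oxygen-regulated subunit came first in level and was among the steadiest. *Hif1a* measured 50.4, 55.5, 53.9, 57.6 and 49.8 RPKM in oxytocin replicates 1 to 5 and 52.5, 56.6, 60.9, 55.9 and 53.1 RPKM in saline replicates 1 to 5. The highest value was a saline library and the lowest an oxytocin library, with the rest interleaved. The log2 fold change was -0.036 ± 0.054 (SE), and its 95% interval corresponds to a level between 0.899 and 1.06 times that of saline.

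Of the secreted signals, *Vegfa* had the lowest fitted value of the 8 and the most uneven spread. It measured 22.2, 23.3, 22.8, 22.8 and 22.1 RPKM in oxytocin replicates 1 to 5, and 23.1, 30.3, 19.6, 21.1 and 32.0 RPKM in saline replicates 1 to 5. The 5 oxytocin libraries were close to each other and lay inside the saline range, whose ends were formed by saline replicates 3 and 5. The log2 fold change was -0.13 ± 0.11 (SE), with a 95% interval from 0.773 to 1.08 times the saline level. Without saline replicate 5 the log2 fold change was -0.030, without saline replicate 2 it was -0.059, and without saline replicate 3 it was -0.21 (unadjusted p = 0.0644, adjusted p = 0.998 in edgeR's test).

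*Adm* was near the lower end of what these libraries measure. It had 56, 72, 31, 45 and 42 counts in oxytocin replicates 1 to 5 and 38, 70, 46, 30 and 47 counts in saline replicates 1 to 5. As RPKM the highest level was 2.43 in saline replicate 2 and the lowest 1.01 in oxytocin replicate 3, a 2.41-fold range with the groups intermixed. The log2 fold change was -0.12 ± 0.22 (SE), and the 95% interval reached from 0.659 to 1.29 times saline. Differences inside that interval were not resolved with 5 libraries a group. The fitted value changed sign, to 0.043, without saline replicate 2.

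*Slc2a1*, the glucose transporter, measured 36.0, 40.7, 42.0, 41.8 and 41.7 RPKM in oxytocin replicates 1 to 5. In saline replicates 1 to 5 it measured 38.0, 53.7, 37.2, 36.5 and 51.7 RPKM. Saline replicates 2 and 5 stood well above the other 8 libraries, and oxytocin replicate 1 was the lowest of all. The log2 fold change was -0.075 ± 0.11 (SE), with a 95% interval from 0.811 to 1.11 times saline, and it was 0.008 without saline replicate 2.

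The enzymes of glycolysis gave fitted values closest to 0. *Ldha* measured 33.0, 31.8, 27.7, 32.2 and 29.7 RPKM in oxytocin replicates 1 to 5 and 33.6, 35.2, 26.7, 26.8 and 34.4 RPKM in saline replicates 1 to 5. Its saline libraries lay on both sides of the oxytocin range, with 0 of 5 inside it. The log2 fold change was 0.007 ± 0.083 (SE), an interval from 0.887 to 1.14 times saline. *Hk2* ranged from 4.14 RPKM (oxytocin replicate 3) to 5.55 RPKM (saline replicate 5), with a log2 fold change of -0.004 ± 0.083 (SE). Both genes changed sign under other settings. *Ldha* has processed pseudogenes in rodents, so its counts are uncertain where a read fits more than a single place.

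*Pdk1*, at the step where pyruvate enters the mitochondrion's oxidation, measured 23.4 ± 1.92 RPKM after oxytocin and 24.4 ± 1.86 RPKM after saline (SD, n = 5 each). The log2 fold change was -0.033 ± 0.066 (SE), with a 95% interval from 0.885 to 1.08 times saline, and it was 0.0004 without saline replicate 2. *Bnip3* had the highest fitted value, 0.058 ± 0.098 (SE), with an interval from 0.899 to 1.21 times saline. It measured 12.0, 10.3, 10.2, 10.03 and 10.9 RPKM in oxytocin replicates 1 to 5 and 12.0, 12.0, 9.33, 10.5 and 8.46 RPKM in saline replicates 1 to 5. The lowest level was in saline replicate 5, where *Vegfa* and *Hk2* had their highest, and without that library the value was -0.009. For the 7 genes other than *Adm*, the intervals exclude levels below 0.773 or above 1.21 times saline.

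**Figure D3:**
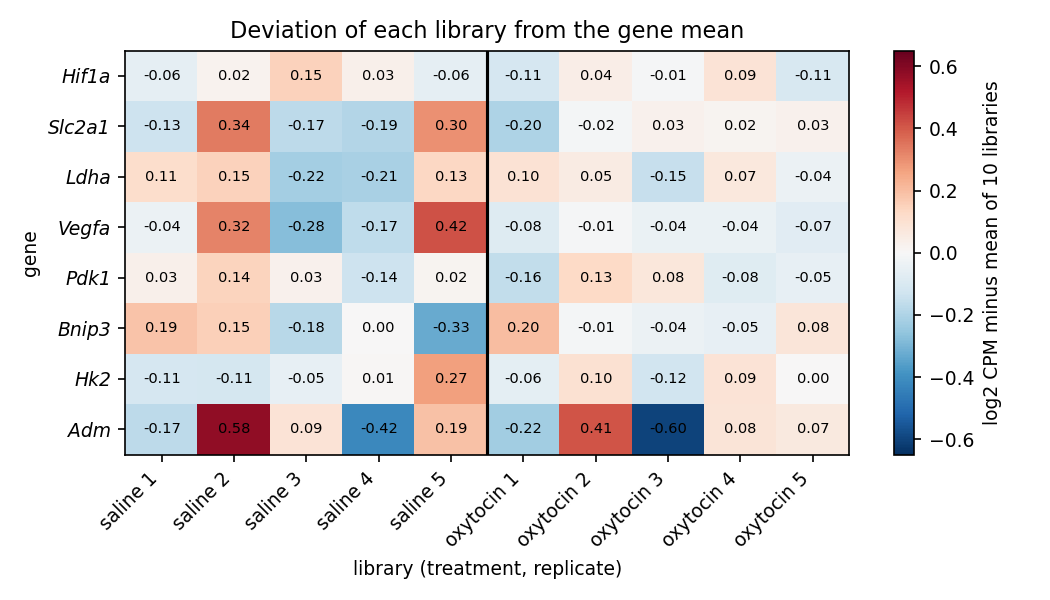
Log2 CPM of each gene in each library minus the gene's mean over the 10 libraries (color scale and printed values), with saline on the left of the black line and oxytocin on the right. Saline replicates 2 and 5 carry the highest values for Slc2a1, Ldha and Vegfa. Bnip3 is lowest in saline replicate 5 at -0.33 but stands at 0.15 in saline replicate 2.

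Several of the genes shared the pair of fetuses in which they were highest, both from saline dams. Saline replicates 2 and 5 were the highest 2 of the 10 libraries for *Vegfa*, *Slc2a1* and *Ldha*, or 3 of 8 genes, and for 468 of the 14400 tested features (3.25%). These libraries were singled out after the values had been seen. On the log2 CPM scale with TMM factors, the gap from the lower of the pair to the next library was 0.33 for *Vegfa* and 0.27 for *Slc2a1*, but 0.021 for *Ldha*, where saline replicate 1 came close behind. *Adm* and *Pdk1* were also highest in saline replicate 2, with oxytocin replicate 2 next, while *Hif1a* was highest in saline replicate 3. The scaling factors of this pair, given above, were the highest as well. In the deposited RPKM values, which use no such factor, the same pair was on top for the 3 genes.

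**Figure D4:**
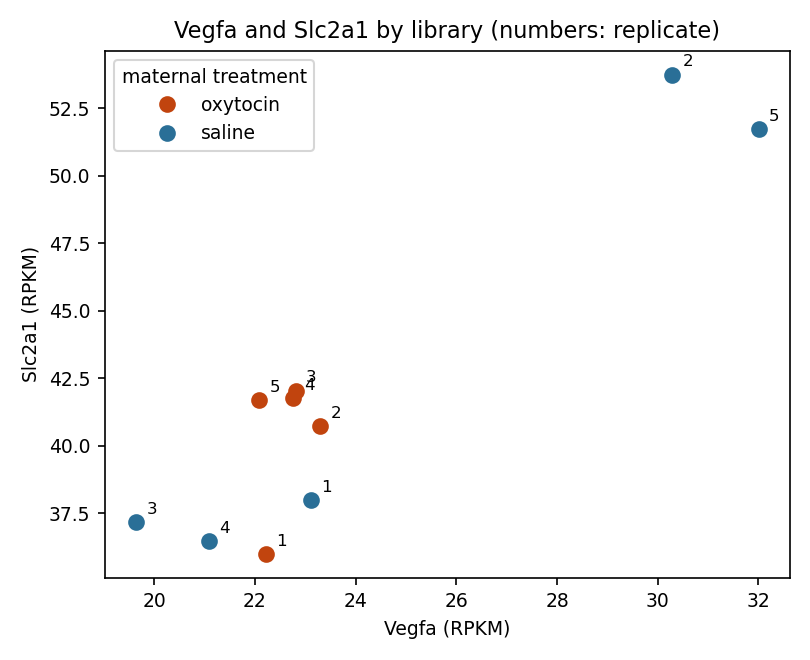
Vegfa (x axis) against Slc2a1 (y axis) in RPKM, a point per library with its replicate number, oxytocin in orange and saline in blue. Saline replicates 2 and 5 lie apart at the upper right, at 30.3 and 32.0 RPKM of Vegfa, and the other 8 libraries form a cluster between 19.6 and 23.3 RPKM.

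The spread of *Vegfa* differed between the groups far more than its mean. The SD of its log2 CPM was 0.30 in saline and 0.030 in oxytocin (n = 5 each), a ratio of 10.1, and 5 of the 14400 features, *Vegfa* included, had a ratio at least as high. Leaving out each library in turn gave ratios from 8.67 to 14.5, but these fits keep at least 1 of the high pair. With saline replicates 2 and 5 both left out, the SD of the remaining 3 saline libraries was 0.12 and the ratio 3.98. For *Slc2a1* the SDs were 0.26 and 0.098, a ratio of 2.69, which 7.85% of features reached, and without oxytocin replicate 1 the ratio was 13.0. With saline replicates 2 and 5 both left out, the saline SD of *Slc2a1* was 0.028 and the ratio turned to 0.283, below 1. Saline was the more variable group for 5 of the 8 genes and for 68.8% of all features, with a median ratio of 1.27. These ratios were looked at after the values had been seen and are given as a description, with no test.

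The variation of *Vegfa* and *Slc2a1* between fetuses was larger in the saline group than in the oxytocin group. In saline, the coefficient of variation of CPM was 22.1% for *Vegfa* and 19.7% for *Slc2a1*, where features with a like mean count (within 0.5 on the log2 scale) had medians of 6.77% and 6.59%. In oxytocin it was 2.15% for *Vegfa*, under both the 2.36% that counting alone gives and the median of 4.85%, and 6.27% for *Slc2a1*, beside 2.08% from counting and a median of 4.66%. In saline replicates 1, 3 and 4 alone it was 8.20% for *Vegfa* and 2.02% for *Slc2a1*, where features of like count had medians of 5.92% and 5.70%. Leaving out the highest 2 of 5 values tends to lower the figure but need not. For *Ldha*, also highest in saline replicates 2 and 5, it was 13.55% with all saline libraries and 13.63% without that pair. Pooled over both groups, the coefficient of variation was 16.5% for *Vegfa* and 15.0% for *Slc2a1*, where counting alone gives 2.38% and 2.11%. Among features with a like mean count, 97.3% of 1971 varied less than *Vegfa* and 96.8% of 1714 varied less than *Slc2a1*, with saline replicates 2 and 5 included. *Ldha* varied by 10.8%, more than 87.5% of features of like count. *Hif1a* (6.13%), *Hk2* (9.58%) and *Pdk1* (7.92%) were close to the medians for their counts, which were 5.62%, 8.83% and 7.09%. *Bnip3* varied by 11.9% and *Adm* by 27.5%, and counting accounted for 28.2% of the variance of *Adm* and 31.7% of that of *Hk2*. A read is not an independent molecule here, so the figures for counting are lower limits on the technical error to be had on average. A value from 5 libraries can fall below that, as *Vegfa* did in oxytocin (2.15% against 2.36%). The ratio of 10.1 given above for *Vegfa* has this small oxytocin spread in its denominator.

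**Figure D5:**
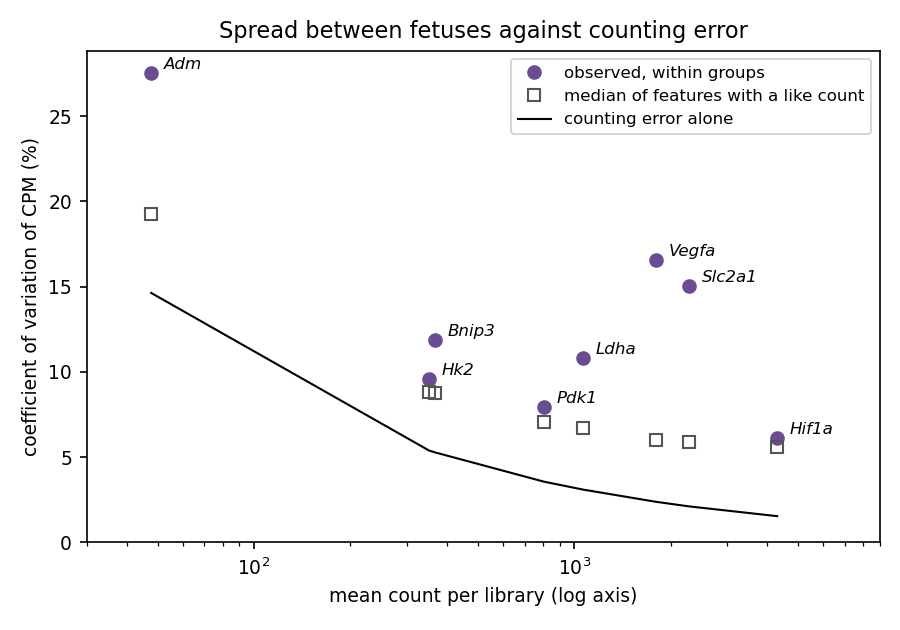
Coefficient of variation of CPM within groups (y axis, percent) against the mean count per library (x axis, log scale): filled circles are the 8 genes, open squares the median of features with a like count, and the line is counting error alone. Vegfa (16.5%) and Slc2a1 (15.0%) lie farthest above the median of features with a like count, through the saline libraries.

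Relations between the genes were computed over libraries for 28 pairs of log2 CPM values. By the correlation of values centred within groups, the closest pair was *Vegfa* with *Slc2a1* and the most opposed was *Hk2* with *Bnip3*. Over all 10 libraries *Vegfa* and *Slc2a1* gave r = 0.91 (permutation p = 0.00176, adjusted p = 0.0493 over 28 pairs) and rho = 0.72 (permutation p = 0.0232, adjusted p = 0.325). Saline replicates 2 and 5 form a separate cluster for these genes, so the 13 pairs with either gene were also computed without them. Over the other 8 libraries, *Vegfa* and *Slc2a1* gave r = 0.60 (exact permutation p = 0.114, adjusted p = 0.722 over 28 pairs, the 13 over 8 libraries and the other 15 over 10) and rho = 0.48 (exact permutation p = 0.243, adjusted p = 0.756). Without the 2 of those 8 farthest from the median of *Vegfa*, r was 0.35. Saline replicates 2 and 5 are the highest for both genes, and leaving them out narrows the range of values. The lower r over 8 libraries thus cannot decide whether the closeness of these genes rests on them.

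*Vegfa* with *Ldha* gave r = 0.71 (permutation p = 0.0221, adjusted p = 0.207 over 28 pairs) over all 10 libraries. Its rho was 0.77 (permutation p = 0.0125, adjusted p = 0.325), above the 0.72 of *Vegfa* with *Slc2a1*. Over the 8 libraries without saline replicates 2 and 5, r was 0.74 (exact permutation p = 0.0225, adjusted p = 0.316 over the same mixed 28). There rho was 0.57 (exact permutation p = 0.151, adjusted p = 0.756), and r was 0.032 without the 2 farthest. *Hk2* with *Bnip3*, over 10 libraries, gave r = -0.71 (permutation p = 0.0214, adjusted p = 0.207 over the 28 pairs with all libraries) and rho = -0.52 (permutation p = 0.134, adjusted p = 0.444), and r = -0.37 without oxytocin replicate 2 and saline replicate 5. With all 10 libraries, 1 of the 28 pairs (*Vegfa* with *Slc2a1*) passed an adjusted p of 0.05 by r and 0 by rho, and 3 had an unadjusted permutation p under 0.05 by r. With saline replicates 2 and 5 left out of the 13 pairs, 0 of 28 passed and 2 had an unadjusted p under 0.05. For *Hif1a* with *Ldha*, r over 10 libraries was -0.44 (permutation p = 0.197, adjusted p = 0.535 over the 28 pairs with all libraries) and rho was -0.42 (permutation p = 0.233, adjusted p = 0.544), and r was -0.067 without oxytocin replicate 1 and saline replicate 3.

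A joint profile was formed as the mean of the 8 genes' values, centred within groups and standardised. It was highest in saline replicate 2 (0.88) and lowest in saline replicate 4 (-0.74). *Adm*, *Slc2a1*, *Vegfa* and *Ldha* lay closest to it, with r of 0.86, 0.84, 0.82 and 0.75, whereas *Hif1a* (0.014) and *Bnip3* (-0.093) lay farthest from it. Each gene is itself 1 of the 8 in the mean, which raises its r. Among the other 14392 features the closest were ENSRNOG00000020793 (chromosome 1, 102493177 to 102506032), with r = 0.97, and ENSRNOG00000012826 (chromosome 4, 64691125 to 64803069), with r = 0.96. Without saline replicate 2 and oxytocin replicate 2 these were 0.93 and 0.91. They are the top of a long ranking over 10 libraries. All features of a library share its depth and scaling factor, so the values are a description only.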

How the data were processed

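Per the labels, total RNA from rat fetal cortex was selected with oligo-dT. The submitters' processing notes name bcl2fastq, STAR 2.0.4b, Subread, featureCounts 1.45 and build Rnor_5.0. The strand setting and the treatment of reads that map to several places are not given in the sources used here. The Count column holds whole-number counts per Ensembl gene as deposited, without normalization. The deposited CPM values equal those counts per library total, and the deposited RPKM values equal CPM per kilobase of listed exon length.

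Gene names of the 8 come with their identifiers. Chromosome and strand matched the RefSeq gene of that name for 8 of 8, on another build. The gene table pairs 0 of the 26404 identifiers with a symbol, so 14 further lists of pathway and marker genes and ratios between paralogs were not analysed here. The genes and lists were chosen with earlier results of these data known. The naming rule was all 8 genes, the closest and the most opposed pair, and the 2 features nearest to the joint profile. *Vegfa* with *Ldha* and *Hif1a* with *Ldha* were added after their values were seen.

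Counts were filtered with filterByExpr (14400 features), scaled with TMM and tested with edgeR 4.0.16 (R 4.3.3, glmQLFit, Benjamini-Hochberg over all features). The SE is the log2 fold change over the square root of F. Log2 CPM used a prior count of 2. The tests across genes were tried on simulated counts. Within groups, library pairs differed by chi-square per degree of freedom of 4.14 to 19.2, so each library counted once. Alternatives were DESeq2 1.42.0, limma 3.58.1 with quality weights, other scalings and filters, and leaving out each library. Correlations used 100000 permutations, or all orders for 8 libraries.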

Additional observations from a re-analysis of the deposited data

Results flagged for a closer look

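In 16 groups of 5 values (8 genes, saline and oxytocin), 1 value stood apart by Dixon's test at a critical value of 0.71. Chance flags about 1 group in 20. *Slc2a1* in oxytocin replicate 1 had 6.54 log2 CPM, while the next oxytocin library had 6.73, a gap of 0.808 of the range of the group. This library is also the deepest, with 30404127 counts, and the part of depth in this value was not tested.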

How the results depend on the processing

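The count of 0 genes of the 8 past the threshold, at adjusted and at unadjusted p, was also found in the 7 alternatives with all libraries and in the 10 fits without 1 library, except that DESeq2 gave no adjusted p for 5 of the 8. DESeq2 called 10 features of the whole table, where the other alternatives called 0. The median log2 fold change of the 8 ranged from -0.061 to -0.015 over the alternatives with all libraries and from -0.066 to 0.004 without each library. With all libraries, signs turned for *Hk2* (0.015) and *Ldha* (-0.00533) with limma's quality weights and for *Ldha* (-0.0203) with library size alone. Leaving out a library turned the sign of 6 genes in at least 1 fit, *Vegfa* and *Hif1a* being the exceptions. Scaling by library size alone moved the median of all features to -0.0295 and the share of higher values among those at an unadjusted p under 0.05 from 54.1% to 25.3%. Without each library in turn, log2 fold changes ran from -0.205 to -0.0297 for *Vegfa*, -0.264 to 0.0432 for *Adm*, -0.129 to 0.00777 for *Slc2a1*, -0.0349 to 0.0686 for *Hk2*, -0.0448 to 0.0471 for *Ldha*, -0.0762 to 0.00035 for *Pdk1*, -0.00933 to 0.115 for *Bnip3* and -0.066 to -0.0016 for *Hif1a*. A prior count of 0.5 moved no library's log2 CPM by more than 0.069 (*Adm*). The spread ratios were recomputed as an alternative chosen after the data were seen, and with library size alone they were 10.1 for *Vegfa* and 2.94 for *Slc2a1*. With saline replicates 2 and 5 both left out they were 3.98 and 0.283. *Adm* rests on 30 to 72 counts per library, and counting made up 28.2% of its variance within groups. The further gene lists and the ratios between paralogs were not run, for want of identifiers. No paired analysis was possible because replicate numbers follow accession order and the labels link no fetuses across groups.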
